A study of Mus musculus with 2 samples.

Results

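Ky, Lrtm1, Dhrs7c and Ttll1 are 4 of the 30385 entries of a table of 5′RNA-seq read counts from mouse heart. They were chosen by name, as genes tied to muscle with among the largest deficits of reads in the MHC403 library against the wild-type (WT) library once both were scaled to their totals. The choice used the very ratio described here, so the deficits are given as a description, with no test. The WT group was heart RNA of wild-type mice and the MHC403 group heart RNA of MHC403/+ mice, which carry a human missense mutation in 1 copy of a myosin heavy chain gene and model hypertrophic cardiomyopathy. Both groups were 129/SvEv mice aged 8 to 16 weeks, and both had been treated for 2 weeks with subcutaneous cyclosporine A (CsA), a calcineurin inhibitor, at 15 mg/kg per injection and 2 injections each day. There was 1 library per group, a pool of biological replicates whose number the labels do not state, so no difference has a replicate check and an effect of the genotype cannot be told apart from a genotype-specific response to CsA. In 5′RNA-seq neither RNA nor cDNA is fragmented and reads gather near transcription start sites.

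Ky encodes the kyphoscoliosis peptidase, a protein of the muscle Z-disc with a transglutaminase-like domain that binds filamin C, and its loss in mice leads to a muscle disease with curvature of the spine. Lrtm1 encodes a membrane protein with leucine-rich repeats. Dhrs7c, also known as SRP-35, encodes a short-chain dehydrogenase of the sarcoplasmic reticulum, the calcium store of striated muscle, with activity on retinol. Ttll1 encodes the catalytic subunit of a polyglutamylase, an enzyme that adds glutamate chains to tubulin and so marks microtubules. Ttll1 also acts in cilia and neurons and is not a gene of muscle alone, so the word muscle describes the other 3 better.

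The reads of each gene were counted in a window around its annotated start, and the promoter sequence ahead of that start is shown here because the window begins 200 bases before the start and so covers most of it. For Ky, Lrtm1 and Ttll1 the window ended after 200 bases of transcript. Lrtm1 had a single block of 400 bases, and Ky and Ttll1 had 400 bases with the last 58 and 25 bases in a second block. Dhrs7c had 3 blocks of 334, 66 and 66 bases, 466 in all. Each of the 4 genes had 1 annotated start, as did 63.9% of measured entries, and none of the 4 had a window that overlapped that of another entry. RefSeq promoters (build GRCm38.p6) were at hand for 2 of the 4, Ky at chr9:102505888-102506137 and Lrtm1 at chr14:29017958-29018207, both on the plus strand. The 250 bases before the start are given 5′ to 3′, with capitals for each match to 1 of 7 motifs searched on both strands.
Ky: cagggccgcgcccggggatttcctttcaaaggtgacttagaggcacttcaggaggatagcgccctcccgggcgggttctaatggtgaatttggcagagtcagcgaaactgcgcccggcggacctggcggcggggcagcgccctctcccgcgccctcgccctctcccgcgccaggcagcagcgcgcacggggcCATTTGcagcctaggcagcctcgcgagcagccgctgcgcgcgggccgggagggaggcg
Lrtm1: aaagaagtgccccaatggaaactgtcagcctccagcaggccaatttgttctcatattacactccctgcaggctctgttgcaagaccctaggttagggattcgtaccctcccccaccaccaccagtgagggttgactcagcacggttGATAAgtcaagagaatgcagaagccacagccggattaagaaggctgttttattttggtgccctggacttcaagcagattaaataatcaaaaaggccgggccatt

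The 2 promoters differed in composition. That of Ky had 71.2% G and C and 29 CpG dinucleotides, and that of Lrtm1 49.2% and 4, against medians of 52.4% and 6 over 32851 RefSeq promoters. The capitals in Ky are an E-box (CANNTG) that begins 58 bases before the start, a motif held by 66.2% of all promoters. The capitals in Lrtm1 are GATAA, 104 bases before the start, held by 22.6%. Neither stretch held the MEF2 motif (in 2.92% of all promoters), the CArG box (1.47%), CATTCC (12.6%), AAGGTCA (4.08%) or TATAAA (12.4%), and the 2 matches overlapped no other motif. The RefSeq start of Lrtm1 lay as far from the annotated end of the gene as the start in the table, 15435 bases, and that of Ky differed by 8 bases.

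The libraries held 5468677 reads (MHC403) and 5481123 reads (WT). An entry is called measured here if either library had 50 or more of its reads, which 9507 entries met. Ratios divide the MHC403 level by the WT level, RPM is a read count scaled to a library total of 1000000, and ranges in parentheses are exact 95% intervals that cover counting error only. The median log2 ratio of measured entries was 0.57, so a typical entry had a higher level in MHC403. Entries listed on the mitochondrial chromosome took 13.7% of MHC403 reads and 29.5% of WT reads. Atpase6, counted as mitochondrially encoded elsewhere here, is not in these shares, so the full shares were higher. Such a difference moves every other share. Median-of-ratios scaling, which centres on the typical entry and lowers every log2 ratio by 0.55, is therefore given as a second reading.

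All 4 genes passed the minimum of 50 reads, Ky through the WT library alone and the other 3 in both libraries. Ky (chromosome 9, 102408468 to 102448569 on mm9) had 3 reads in MHC403 and 53 in WT, or 0.549 RPM (0.113 to 1.6) and 9.67 RPM (7.24 to 12.6). The MHC403 level was 5.67% of the WT level (1.13 to 17.5). This is the widest interval of the 4, since it rests on 3 reads.

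Lrtm1 (chromosome 14, 29831394 to 29846828) was the most deeply sampled of the 4. It had 311 reads in MHC403 and 1868 in WT, or 56.9 RPM (50.7 to 63.6) and 340.8 RPM (326 to 357). The MHC403 level was 16.7% of the WT level (14.8 to 18.8).

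Dhrs7c (chromosome 11, 67611773 to 67629504) had 99 reads in MHC403 and 493 in WT. These are 18.1 RPM (14.7 to 22) and 89.9 RPM (82.2 to 98.2), and the MHC403 level was 20.1% of the WT level (16.1 to 25). Ttll1 (chromosome 15, 83314199 to 83341337, minus strand) had 68 reads in MHC403 and 411 in WT. These are 12.4 RPM (9.66 to 15.8) and 75 RPM (67.9 to 82.6), with the MHC403 level at 16.6% of the WT level (12.6 to 21.5).

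**Figure D1:**
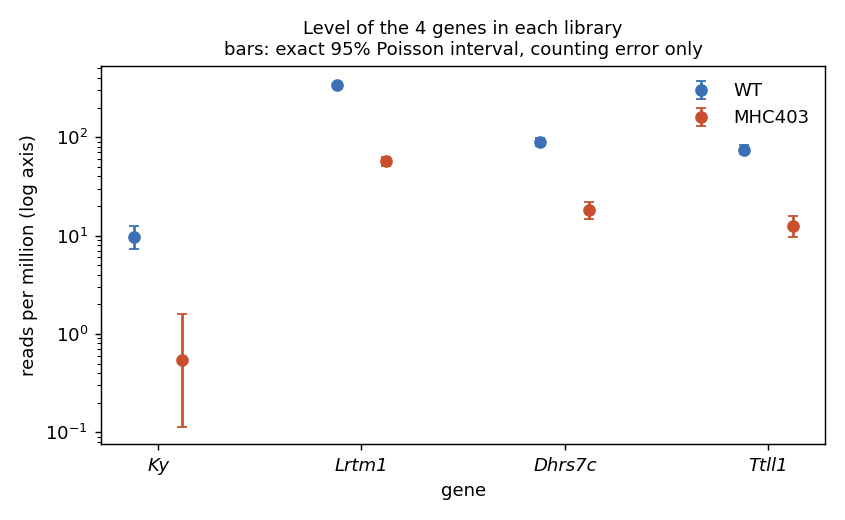
Level of the 4 genes in RPM (log axis) in the WT library (blue) and the MHC403 library (orange), 1 library each, with exact 95% Poisson intervals. In each gene the 2 intervals lie apart, and the interval of Ky in MHC403 is the widest, from 0.113 to 1.6 RPM.

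For all 4 genes the counting intervals of the WT and MHC403 levels did not overlap. By log2 ratio the order was Ky at -4.14 (-6.46 to -2.51), Ttll1 at -2.59 (-2.98 to -2.22), Lrtm1 at -2.58 (-2.76 to -2.41) and Dhrs7c at -2.31 (-2.64 to -2.0). Each interval overlapped that of its neighbour in this order, and the differences between the 4 deficits were not tested. All 4 were at least 2-fold lower, a call that 2.43% of the 9507 measured entries met, while 26.1% were at least 2-fold higher. The choice of the 4 used this ratio, so nothing is read from that count.

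Levels of the 4 genes relative to each other were compared per kilobase of counted window. In WT the order was Lrtm1 at 852 RPM per kb (814 to 892), Dhrs7c at 193 (176 to 211), Ttll1 at 187 (170 to 206) and Ky at 24.2 (18.1 to 31.6). Dhrs7c and Ttll1 did not differ beyond their counting intervals. In MHC403 the order was the same, with Lrtm1 at 142 RPM per kb (127 to 159), Dhrs7c at 38.8 (31.6 to 47.3), Ttll1 at 31.1 (24.1 to 39.4) and Ky at 1.37 (0.283 to 4.01). On this scale Lrtm1 stood above 96.6% of measured entries in WT and above 74.4% in MHC403. Dhrs7c went from 86.4% to 31.1% and Ttll1 from 86.0% to 23.4%. Ky stood above 29.3% in WT, and no place is given for MHC403, since it was measured through its WT reads alone.

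The 4 genes were not the 4 lowest entries. By ratio Ky ranked 1, Ttll1 12, Lrtm1 13 and Dhrs7c 19 among the 9507 measured entries, with 10 entries between Ky and Ttll1 and 5 between Lrtm1 and Dhrs7c. In all, 31 entries were at least 4-fold lower, among them the 4 genes and 4 mitochondrially encoded entries. The entries Fox1 and Rbfox1 among them had identical counts, 24 reads against 168 in WT. Counts and ranks are of entries and may thus count a gene more than once. Just after Ky came 3110057O12Rik, with 15 reads against 146 in WT, and just before Ttll1 came the peroxisomal membrane gene Pxmp2, with 67 against 410. Around Dhrs7c stood Ppl (periplakin, 12 reads against 61) just before it and the cAMP phosphodiesterase Pde7a (20 against 97) just after it.

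Ranked by the bound of the interval nearer to a ratio of 1, which favours well-counted genes, Ky was again 1 and the other 3 stood closer to the top. Lrtm1 was 4, Ttll1 9 and Dhrs7c 12. By RPM lost, Lrtm1 was 67 among all measured entries and 49 among those not encoded by mitochondria, with 284 RPM fewer in MHC403. Ky lost 9.12 RPM, which placed it at 730. A total of 21 of the 31 entries at least 4-fold lower had under 200 reads in WT, and 1 had more WT reads than Lrtm1.

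**Figure D2:**
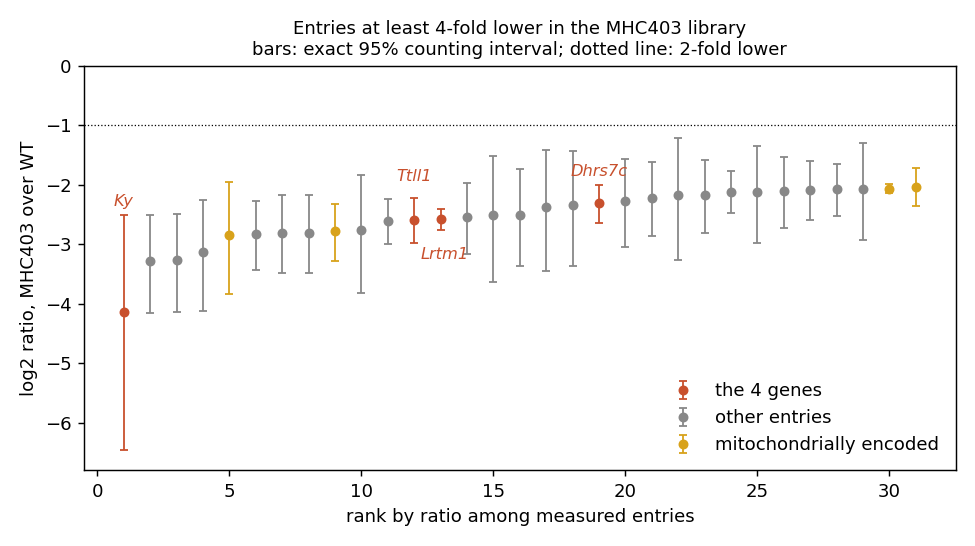
Log2 ratio, MHC403 over WT, of the 31 measured entries at least 4-fold lower, in order of rank, with exact 95% counting intervals; the 4 genes are orange, mitochondrially encoded entries yellow and the rest grey. Ky ranks 1 with an interval from -6.46 to -2.51, and Lrtm1, at rank 13, has a far narrower one, from -2.76 to -2.41.

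Most entries of like level were not lower. Measured entries were put into 10 classes of equal size by mean level. In class 10, the highest, which holds Lrtm1, 3.68% were at least 2-fold lower and 15.6% higher, and none of the 951 entries had a lower ratio than Lrtm1. Dhrs7c and Ttll1 shared class 7, where 1.68% were lower and 20.5% higher, with 2 entries under Dhrs7c and 1 under Ttll1. Ky fell in class 1, the lowest, where 6.1% were lower and 64.8% higher. This class takes in entries that just passed the read minimum in 1 library and were low in the other. The minimum itself thus favours 2-fold calls there, and nothing is read from these shares for Ky. The places of the 4 genes within their classes follow in part from their choice by this ratio.

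The entries most like each gene were taken as those nearest in log2 RPM over the 2 libraries. For Ttll1 the nearest was Pxmp2, at a distance of 0.02, followed by Asb15 (a muscle ankyrin repeat gene of the SOCS box family, 83 reads against 362 in WT) at 0.34. For Lrtm1 they were carbonic anhydrase Car14 (439 reads against 1309) at 0.71, the muscle ribosomal protein Rpl3l (410 against 1206) at 0.75 and the KATP channel subunit Abcc9 (359 against 1058) at 0.85. For Dhrs7c they were mt-tRNA-Ala, mt-tRNA-Met and mt-tRNA-Cys, at distances of 0.20 to 0.30. For Ky the nearest was 1700040L02Rik at 1.74. Only measured entries with reads in both libraries were searched, and Ky lies at that read minimum. Entries with fewer reads could not be found, so the distance does not show that Ky stands alone. With 2 libraries this measure compares 2 values per gene.

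Genes listed with Ky for the Z-disc did not share its deficit. Of 26 listed genes of the Z-disc scaffold and of filamin turnover, 22 were measured, with 11 at least 2-fold higher, 11 within 2-fold and 0 lower. Over all measured entries 26.1% were higher and 2.43% lower. The list also held the thick filament genes Mybpc1, Mybpc2 and Mybpc3, of which Mybpc2 counts as higher and Mybpc3 as within 2-fold. With median-of-ratios scaling 8 were higher and 1, Tcap, lower, against 10.9% and 7.59% of all measured entries. Filamin C, Flnc, the partner of Ky, had 8112 reads in MHC403 and 1071 in WT, 7.59-fold higher (7.12 to 8.10). The Xin-repeat protein Xirp2 was 9.90-fold (9.18 to 10.7) and the synaptopodin-like Synpo2l 5.66-fold (5.17 to 6.20) higher. The lowest of the list was the titin cap gene Tcap, with 5131 reads against 9024, 1.75-fold lower (1.70 to 1.82). The list median log2 ratio was 1.0, against 0.57 for all measured entries.

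For Lrtm1, 39 genes of leucine-rich repeat proteins were listed and 10 were measured. Its paralog Lrtm2 had 0 reads in both libraries. At least 2-fold lower were Lrrc15, a membrane protein with 16 reads against 91, and Lrrc39, a protein of the sarcomeric M-band with 153 against 352. Higher by at least 2-fold were Lrrc32 (112 against 43), a receptor that tethers latent TGF-beta, and Lrig1 (238 against 110), a restrainer of growth factor receptors. The list median was 0.09, and over all measured entries 2.43% were lower and 26.1% higher by 2-fold. Centred on the typical entry (median of ratios), 3 genes of the list were lower and 0 higher by 2-fold. On that scaling 7.59% of all measured entries were lower and 10.9% higher.

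Lrtm1 lies within the span of Cacna2d3, a calcium channel subunit gene on the opposite strand. The window at the start of Cacna2d3 had 0 reads in MHC403 and 1 in WT.

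Dhrs7c was set against other dehydrogenases and retinoid genes and against proteins of the sarcoplasmic reticulum. Its paralog Dhrs7 had 98 reads in MHC403 and 97 in WT, a ratio of 1.01 (0.757 to 1.35), and Dhrs7b had 116 and 73, a ratio of 1.59 (1.18 to 2.16). Among 24 measured genes of the DHRS and retinoid list, 2 were at least 2-fold lower, 5 were higher and 17 lay between, and the median was 0.06. The shares over all measured entries were 2.43% lower and 26.1% higher. With median-of-ratios scaling 6 were lower and 2 higher, against 7.59% and 10.9% of all measured entries. The lower 2 were Cyp26b1, which degrades retinoic acid (17 reads against 61), and the retinoid X receptor Rxrg (86 against 220). Aldh1a2, which makes retinoic acid from retinal, had 59 reads against 6 and was 9.86-fold higher (4.27 to 27.9), and the receptor Rara was 2.72-fold (2.11 to 3.54) higher.

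Among 25 measured genes of the sarcoplasmic reticulum, 3 were at least 2-fold lower, 6 were higher and 16 lay between, and the median was 0.34. The shares over all measured entries were again 2.43% lower and 26.1% higher. With median-of-ratios scaling 4 were lower and 2 higher, against 7.59% and 10.9% of all measured entries. The calcium-binding protein Hrc (1919 reads against 6052) was 3.15-fold lower (2.99 to 3.31) and the calcium pump Atp2a2 2.14-fold (2.09 to 2.19). Dhrs7c, chosen for its deficit, had a log2 ratio of -2.31, and Hrc had -1.65. Casq1, a calcium buffer, was 4.83-fold higher (3.03 to 8.03) and the store sensor Stim1 3.12-fold (2.13 to 4.64).

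Ttll1 was set against the rest of its family, though its place there follows in part from its choice for a low ratio. In WT it held 411 of the 538 reads of the 13 Ttll entries, 76.4% (exact 95% interval 72.6 to 79.9), and in MHC403 68 of 369, 18.4% (14.6 to 22.8). The other Ttll entries together had 127 reads in WT and 301 in MHC403, 2.38-fold higher on library totals. A typical measured entry was also higher on that scaling, with a median log2 ratio of 0.57. Ttll3, a glycylase, had 108 reads in MHC403 and 29 in WT, Ttll12 58 and 18, Ttll4 39 and 17, and Ttll7 43 and 15. Ttll5 had 43 and 44, and 6 entries had 0 reads in both libraries. Only Ttll3 and Ttll12 of these others were measured. With median-of-ratios scaling the log2 ratios of Ttll3, Ttll12, Ttll4, Ttll7, Ttll11 and Ttll5 were 1.35, 1.14, 0.65, 0.98, 0.78 and -0.58.

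The partner subunits of the Ttll1 polyglutamylase complex were named after their values were seen. Subunit 1, listed as Gm16517, had 113 reads in MHC403 and 76 in WT, 1.49-fold higher (1.10 to 2.02). Subunit 2 (Tpgs2), listed as 5730494M16Rik, had 40 and 26, Nicn1 71 and 44, and Lrrc49 13 and 13. Ttll1 was thus the subunit with fewer reads in MHC403, while 3 of the other 4 had more and Lrrc49 had equal reads. With median-of-ratios scaling the log2 ratios of Gm16517, 5730494M16Rik, Nicn1 and Lrrc49 were 0.03, 0.08, 0.15 and -0.54, and that of Ttll1 -3.14. Of 12 measured genes of the list of tubulin-modifying enzymes, 0 were lower by 2-fold or more, 5 were higher and 7 lay between, and the median was 0.81. Of all measured entries 2.43% were lower and 26.1% higher. With median-of-ratios scaling 3 were higher and 0 lower, against 10.9% and 7.59% of all measured entries. The tubulin acetyltransferase Atat1 was 4.96-fold higher (3.05 to 8.47), and Vash1, a tubulin carboxypeptidase, 2.72-fold (2.13 to 3.50).

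**Figure D3:**
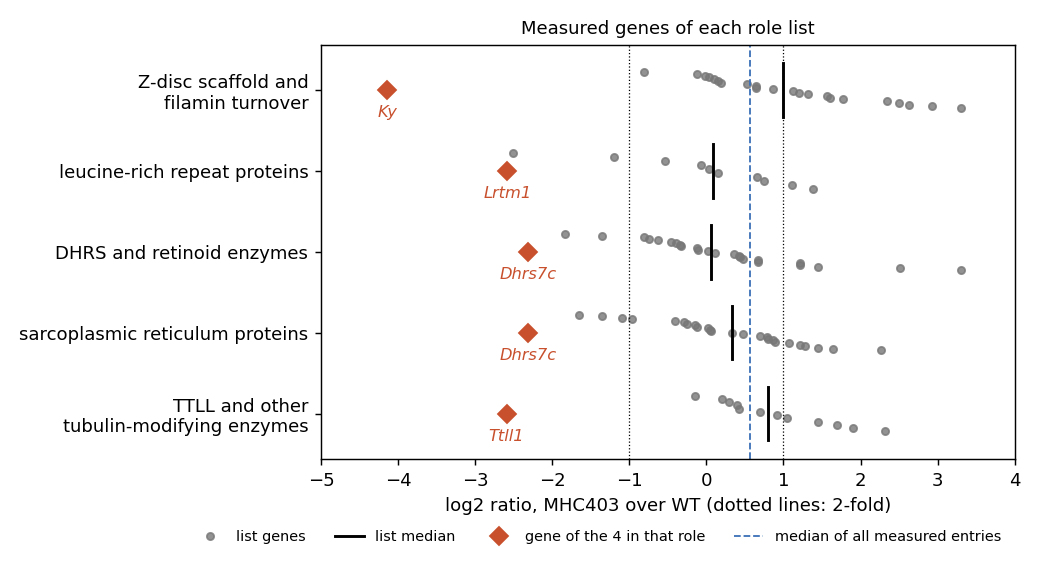
Log2 ratio, MHC403 over WT, of the measured genes of 5 role lists (grey points), with the list median (black line), the gene of the 4 that belongs to each role (orange) and the median of all measured entries (dashed line at 0.57). Ky, Dhrs7c and Ttll1 lie below every measured gene of their lists, and Lrtm1, at -2.58, lies just below Lrrc15 at -2.50. The 4 genes were chosen for low ratios, so these places follow largely from the choice.

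The neighbours on the chromosome had no deficit of this size. Among the 3 nearest entries on each side of each gene and any that overlapped it, 25 in all, 10 were measured, with 0 at least 2-fold lower, 1 higher and 9 between. Over all measured entries 2.43% were lower and 26.1% higher, so a count of 0 lower among 10 is near the overall share. With median-of-ratios scaling 1 of the 10 was lower (Ephb1, at -1.33) and 0 higher, against 7.59% and 10.9% of all measured entries. Cep63, 40.3 kb beyond Ky, had 89 reads in MHC403 and 117 in WT, and Anapc13, 80.1 kb beyond it, 1420 and 1878. Pacsin2, 19.2 kb from Ttll1, had 716 and 583, and Bik, 16.0 kb away on the other side, 56 and 32. Gas7, 109 kb from Dhrs7c, had 108 and 45 and was the entry at least 2-fold higher. Around Lrtm1 the nearest measured entries lay farther off, Selk at 935 kb with 670 and 463 reads.

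**Figure D4:**
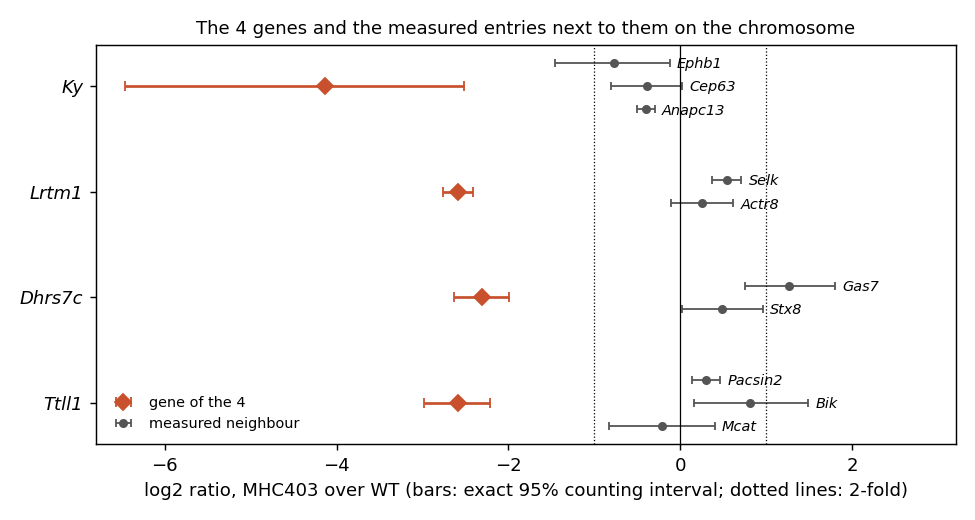
Log2 ratio, MHC403 over WT, of the 4 genes (orange) and the 10 measured entries next to them on the chromosome (black), with exact 95% counting intervals. The neighbours lie between -0.78 (Ephb1) and 1.27 (Gas7), and the intervals of the 4 genes end between -2.51 (Ky) and -2.0 (Dhrs7c).

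Markers of heart cell types were read beside these values. In bulk tissue fewer cells of a type and less RNA per cell cannot be told apart. Over all measured entries 2.43% were at least 2-fold lower and 26.1% higher, or 7.59% and 10.9% with median-of-ratios scaling. All 12 cardiomyocyte markers were measured and 2 were at least 2-fold lower (Myh6 and Myl2), or 6 with median-of-ratios scaling, where their median log2 ratio was -1.07. Their summed level was 50533 RPM in MHC403 and 76120 RPM in WT, 1.51-fold lower. Most of this drop lay in Myh6 and Myl2, as the other 10 markers had 185079 reads in MHC403 and 197728 in WT. Scaled to the sum of all 12, the log2 ratios became -3.55 for Ky, -1.99 for Lrtm1, -1.72 for Dhrs7c and -2.0 for Ttll1. Scaled to the 10 markers without Myh6 and Myl2 they were -4.05, -2.49, -2.22 and -2.50. Both scalings were added after the values were seen. All 8 fibroblast markers and all 7 macrophage markers were measured, of which 5 and 7 were at least 2-fold higher, with sums 6.17-fold and 3.13-fold higher. The fibroblast sum was mostly that of 3 collagens (13036 reads against 659 in WT), and the other 5 markers had 3825 against 2078, 1.84-fold higher. On library totals endothelial markers were within 2-fold in 8 of 8, and smooth muscle markers 2-fold higher in 2 of 3 measured. The part of these cells in the deficits was not tested.

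Skeletal muscle RNA was looked for because Ky, Lrtm1 and Dhrs7c are also genes of skeletal muscle. Of 15 listed markers 13 had reads, 6 were measured, 5 of these were at least 2-fold lower and 1, Mybpc2, higher. Over all measured entries 2.43% were lower and 26.1% higher. The list summed to 147 RPM in MHC403 and 242 RPM in WT. The 4 skeletal myosin heavy chains on it held 395 and 1124 of the reads. They belong to the same family as the abundant cardiac Myh6, and whether reads of Myh6 were counted in them was not tested. The entries of Myh2 and Myh8 begin at the same base, so some reads may be counted in both. Without the 4 myosin heavy chains the other 11 markers had 409 reads in MHC403 and 204 in WT, of which Mybpc2 had 324 and 107. Among the other 10, with 85 and 97 reads, Atp2a1 had 23 and 59, Neb 6 and 15, Tnnt3 24 and 1, and Actn3 18 and 15. Mylpf had 3 reads in each library, Tnni2 4 in each, and Myod1 and Myf6 0 in both. The divisions of the fibroblast and skeletal lists were made after the values were seen. Markers of adipocytes summed to 5 and 4 reads, of multiciliated cells to 26 and 8, and of neurons to 98 and 55.

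Other scalings kept all 4 genes far below a ratio of 1. Median-of-ratios scaling gave -4.69 for Ky, -3.13 for Lrtm1, -2.86 for Dhrs7c and -3.14 for Ttll1. Under it 7.59% of measured entries were at least 2-fold lower and 10.9% higher. Library totals without mitochondrially encoded entries gave -4.47, -2.92, -2.65 and -2.93. The direction of the 4 deficits was the same under all 6 scalings, and each remained at least 2-fold.

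**Figure D5:**
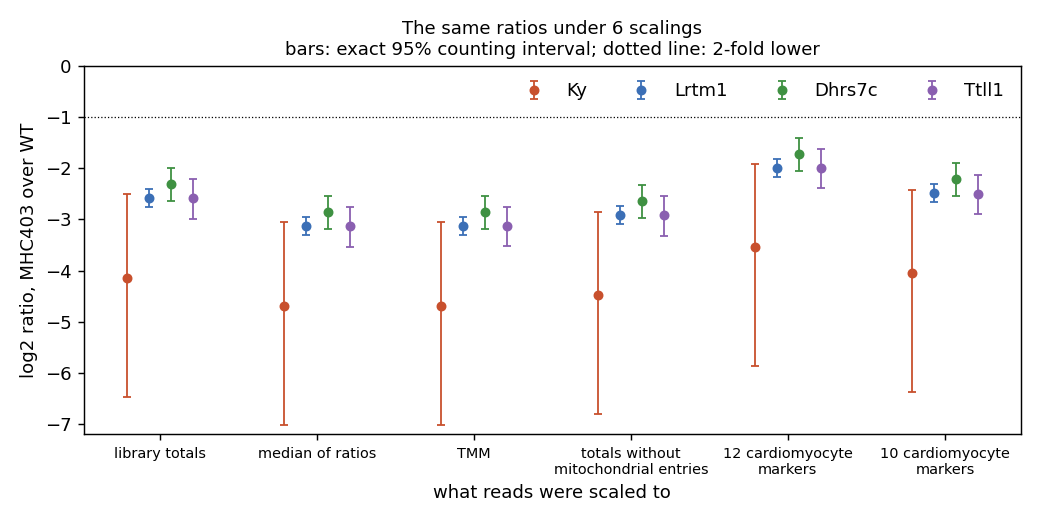
Log2 ratio, MHC403 over WT, of Ky, Lrtm1, Dhrs7c and Ttll1 when reads were scaled to 6 different totals, with exact 95% counting intervals and a dotted line at 2-fold lower. Dhrs7c scaled to the 12 cardiomyocyte markers is closest to the line, at -1.72 (-2.05 to -1.41).

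The sequences of the 4 genes near the start were searched for copies elsewhere. Of the 36-base words in the first 200 bases of their GENCODE transcripts, none occurred in a transcript of another gene on either strand. Over whole transcripts 1.71% of the words of Ttll1 did, and none of those of the other 3. The authors' deposited table also gives a start-site score per entry, with no formula in the sources used here. It was 64 for Ttll1, a value reached by 52 of the 10483 entries with at least 20 reads in both libraries, 7 for Lrtm1 and 0 for Dhrs7c and Ky, and Ky had under 20 reads in MHC403.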

How the data were processed

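Heart RNA of 1 WT and 1 MHC403/+ pool was sequenced. The submitters' processing notes name TopHat 1.0.14 and mm9. Read length, counting program and use of strand are not stated there. Raw counts of reads per entry were deposited by the authors, per the file headers. The authors also deposited normalized reads, which recomputation showed to be RPM, that is counts scaled to the column total. In the authors' deposited table the fold is a ratio of those RPM values, and the authors' deposited p-value and score have no stated method.

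Samples were grouped by genotype label. From the counts, log2 ratios were computed on library totals with exact conditional (Clopper-Pearson) 95% intervals; levels have exact Poisson intervals. With 1 library per group no test was made. The method was tested on simulated data. Entries were called at 2-fold if either library had 50 or more reads, and 50 reads in each give an interval of 0.662 to 1.51. Amplified reads are not independent molecules, so intervals cover counting error only. TMM factors came from edgeR 4.0.16, the rest from Python 3.11.15 with scipy 1.17.1. The genes, role lists and markers were chosen with earlier results of these data known. Named genes were up to 3 lowest and 3 highest per list by the nearer interval bound, chromosome neighbours, paralogs, the 3 entries nearest in level and those adjacent in rank. A gene that this rule names is not reported here. Protein sequences were not used here. Alternatives were other scalings, read minimums of 20, 200 and none, a pseudocount of 1 RPM, and leaving out overlapping windows. With no minimum, an entry still needed reads in both libraries.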

Additional observations from a re-analysis of the deposited data

How the results depend on the processing

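All 4 log2 ratios stayed negative under each scaling and with 1 RPM added as a pseudocount. With 1 library per genotype no replicate could be left out. Median-of-ratios and TMM scaling gave -3.13 and -3.13 for Lrtm1, -2.86 and -2.86 for Dhrs7c, and -3.14 and -3.14 for Ttll1. Totals without mitochondrially encoded entries gave -2.92 for Lrtm1 and -2.65 for Dhrs7c, and the 12 cardiomyocyte markers -1.99, -1.72 and -2.0 for Lrtm1, Dhrs7c and Ttll1. These shifts follow from the scaling factors. Ky moved to -2.78 with the pseudocount, inside its counting interval.

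Counts of called entries moved with every scaling. From 231 lower and 2483 higher they became 722 and 1033 with median-of-ratios scaling, 718 and 1040 with TMM, and 429 and 1449 without mitochondrial entries. A minimum of 20 reads gave 357 lower, 200 reads 100 lower and 989 higher, and no minimum 736 and 4786. Ranks by ratio of Ky, Lrtm1, Dhrs7c and Ttll1 were 6, 26, 44 and 25 with 20 reads and 2, 61, 134 and 60 with none. With 200 reads Ky was not measured and the others ranked 5, 6 and 4. Fewer or more entries entered at each minimum.

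In the role lists, median-of-ratios and TMM scaling both gave 1 Z-disc gene lower, 0 leucine-rich repeat genes higher, 6 DHRS and retinoid genes lower and 2 higher, 2 sarcoplasmic reticulum genes higher and 3 tubulin-modifying genes higher. Without mitochondrial entries these were 1, 1, 4 and 3, and 3 for the sarcoplasmic reticulum. The lists, in that order, held 22, 10, 24, 25 and 12 measured genes under each of these scalings. Over all 9507 measured entries, 7.59% were lower and 10.9% higher with median-of-ratios scaling. With TMM 718 of the 9507 were lower and 1040 higher, and without mitochondrial entries 429 and 1449. With 20 reads 6 of 14 leucine-rich repeat genes were higher, against 3388 of all 12325 entries. With 200 reads 1 of 5 leucine-rich repeat genes was lower and 1 higher, and 1 of 10 DHRS and retinoid genes was lower and 2 higher. Of 16 sarcoplasmic reticulum genes 3 were higher, and of 4 tubulin-modifying genes 1 was. Of all 3998 entries at this minimum 100 were lower and 989 higher. With no minimum 11 of 22, 10 of 32 and 9 of 20 genes of the leucine-rich repeat, DHRS and tubulin lists were higher. Of all 16092 entries then counted 4786 were higher. Depth limits Ky most, with 3 reads in MHC403.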
